A study of Mus musculus with 32 samples.

Results

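Cyp2c65, Cyp2c66 and Hsd17b13 are followed here through sorted mouse intestinal stem cells of 4 genotypes on 2 diets. These 3 genes were picked by symbol, out of 54418 rows of the count table, because a lower or higher level had been seen in cells without Ppara. Their difference between Ppara-null and other cells is therefore the reason they were chosen and is given as a description with no test, while diet and Ppard were tested. Cyp2c65 averaged 28.4 ± 14.2 CPM (counts per 1e+06, mean ± SD) in 16 Ppara-null libraries and 63.0 ± 15.3 CPM in the 16 others. Hsd17b13 went the other way, with 37.1 ± 14.5 CPM in Ppara-null and 12.4 ± 5.93 CPM in the other libraries. Cyp2c66 did not bear out the description by which it was grouped with them: it had 30 counts in all 32 libraries together, 18 in Ppara-null and 12 in the other libraries.

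Each of 8 groups held 4 libraries of GFP-high intestinal stem cells, sorted after staining with CD326-eFluor450 and DAPI, from mice of strain C57BL6, and polyadenylated RNA was counted near its 3' end by High Throughput 3'DGE. The genotypes are WT (labelled Wildtype), PparD (Ppard-fl/fl), PparA (Ppara-null) and PparDA (Ppard-fl/fl; Ppara-null), and each was kept on a diet labelled Control or High Fat. All groups share the strain and the GFP by which cells were sorted, and the labels give no Cre driver, no recombination of the floxed allele, no source of the GFP, and no age, sex or length of feeding. The labels do not tie libraries to separate animals, so p-values measure the spread between libraries, which may in part be technical.

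Cyp2c65 and Cyp2c66 are cytochrome P450 mono-oxygenases of the Cyp2c family, which insert oxygen into arachidonic acid and other fatty acids and yield epoxides and hydroxylated products. They draw electrons from NADPH through Por and cytochrome b5, and soluble epoxide hydrolase (Ephx2) turns the epoxides into diols. Hsd17b13 sits on the surface of lipid droplets and is best known from liver, where it has been linked to fatty liver disease and to retinol dehydrogenase activity. Ppara and Ppard are nuclear receptors that fatty acids activate and that switch on genes of fatty acid oxidation.

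The promoters are shown because Cyp2c65 and Cyp2c66 are close copies that were read at very different count levels, and because PPAR and HNF4 receptors bind variants of the AGGTCA element as pairs. Each line gives the 250 bases before the RefSeq transcription start, 5' to 3′ along the gene's own strand, in GRCm38.p6. Capitals mark CAAAGTCCA, a motif of the receptor HNF4, in Cyp2c65, and AGGTCA read on the opposite strand in Hsd17b13.
Cyp2c65, chr19:39060756-39061005, plus strand: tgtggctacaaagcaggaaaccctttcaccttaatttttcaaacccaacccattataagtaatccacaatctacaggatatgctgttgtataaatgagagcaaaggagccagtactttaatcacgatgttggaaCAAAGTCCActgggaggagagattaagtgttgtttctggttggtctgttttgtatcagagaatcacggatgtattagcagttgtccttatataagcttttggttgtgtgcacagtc
Cyp2c66, chr19:39113648-39113897, plus strand: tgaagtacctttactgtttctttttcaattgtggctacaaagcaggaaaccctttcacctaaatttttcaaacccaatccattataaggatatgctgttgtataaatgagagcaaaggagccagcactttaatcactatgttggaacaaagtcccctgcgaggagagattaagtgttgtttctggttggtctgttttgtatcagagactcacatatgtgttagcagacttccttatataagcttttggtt
Hsd17b13, chr5:103977389-103977638, minus strand: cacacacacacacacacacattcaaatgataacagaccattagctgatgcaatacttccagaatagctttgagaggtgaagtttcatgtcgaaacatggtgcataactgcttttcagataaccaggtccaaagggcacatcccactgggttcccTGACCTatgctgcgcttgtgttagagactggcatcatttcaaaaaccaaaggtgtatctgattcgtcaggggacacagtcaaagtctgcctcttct
The promoters of Cyp2c65 and Cyp2c66 were identical at 208 of 221 aligned bases (94.1%). AGGTCA, searched on both strands, occurred in 14% of 32851 promoters of this length. Among the 3 genes it was found once, 96 to 91 bases before the start of Hsd17b13. A pair of AGGTCA on 1 strand with 1 base of any kind between, which contains the single element, occurred in 0.0335% of promoters and was in none of the 3. CAAAGTCCA was added to the search after the sequences had been seen. It occurred in 0.384% of promoters and stood 116 to 108 bases before the start of Cyp2c65. At the aligned place in Cyp2c66, 104 to 96 bases before its start, 1 base differed, A9C, counted from 1 at the 5' end of the motif with the base of Cyp2c65 first. A match of letters is not a bound site, and a missing match says nothing of the receptors.

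Cyp2c65 (ENSMUSG00000067231) lies on chromosome 19 from 39061015 to 39093944 on the plus strand (mm10), and Cyp2c66 (ENSMUSG00000067229) begins 19953 bases further on, from 39113898 to 39187072. Hsd17b13 (ENSMUSG00000034528) lies on chromosome 5 from 103955440 to 103977410 on the minus strand, 12351 bases from its relative Hsd17b11. All 3 are protein-coding. Reads can be hard to assign between genes that share sequence. Some sequence words of 31 bases in the last 500 bases of the transcript also occur in a transcript of another gene. The share of such words was 11.7% in Cyp2c65, 39.4% in Cyp2c66 and 11.3% in Hsd17b13. They occur in 2 other genes for Cyp2c65, 3 for Cyp2c66 and 108 for Hsd17b13, whether copies or not. The deposited estimates of Cyp2c65 and of Cyp2c66 were off a whole number by more than 0.02 in 1 library each, and by no more than 0.029, while those of Hsd17b13 never were. The values of the Cyp2c pair are reported with that uncertainty.

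Libraries held 612672 to 724155 counts. Stem cell markers stood at a summed level of 10900 to 15376 CPM in Ppara-null and 9324 to 15137 CPM in other libraries, so the sorted population carried its defining transcripts throughout. Library numbers in the column names fall into 4 runs of 8, each with every group once. Xist, an RNA of female cells, was at 465 to 928 CPM in runs 1 and 3 and at 9.70 CPM or less in runs 2 and 4. Ddx3y, a gene of the Y chromosome, was at 0 in the former and at 14.3 to 38.8 CPM in the latter. By these transcripts runs 1 and 3 were female and runs 2 and 4 male, so the pairs of runs also split the libraries by sex. Ppara itself had 0 to 5 and Ppard 0 to 7 counts per library, too few to check the genotypes. The Ppara sums were 2 and 7 counts in PparA (Control, High Fat) and 10 and 5 in PparDA, against 6 and 16 in WT and 12 and 9 in PparD.

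The plot of levels by library shows all 3 genes.

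**Figure D1:**
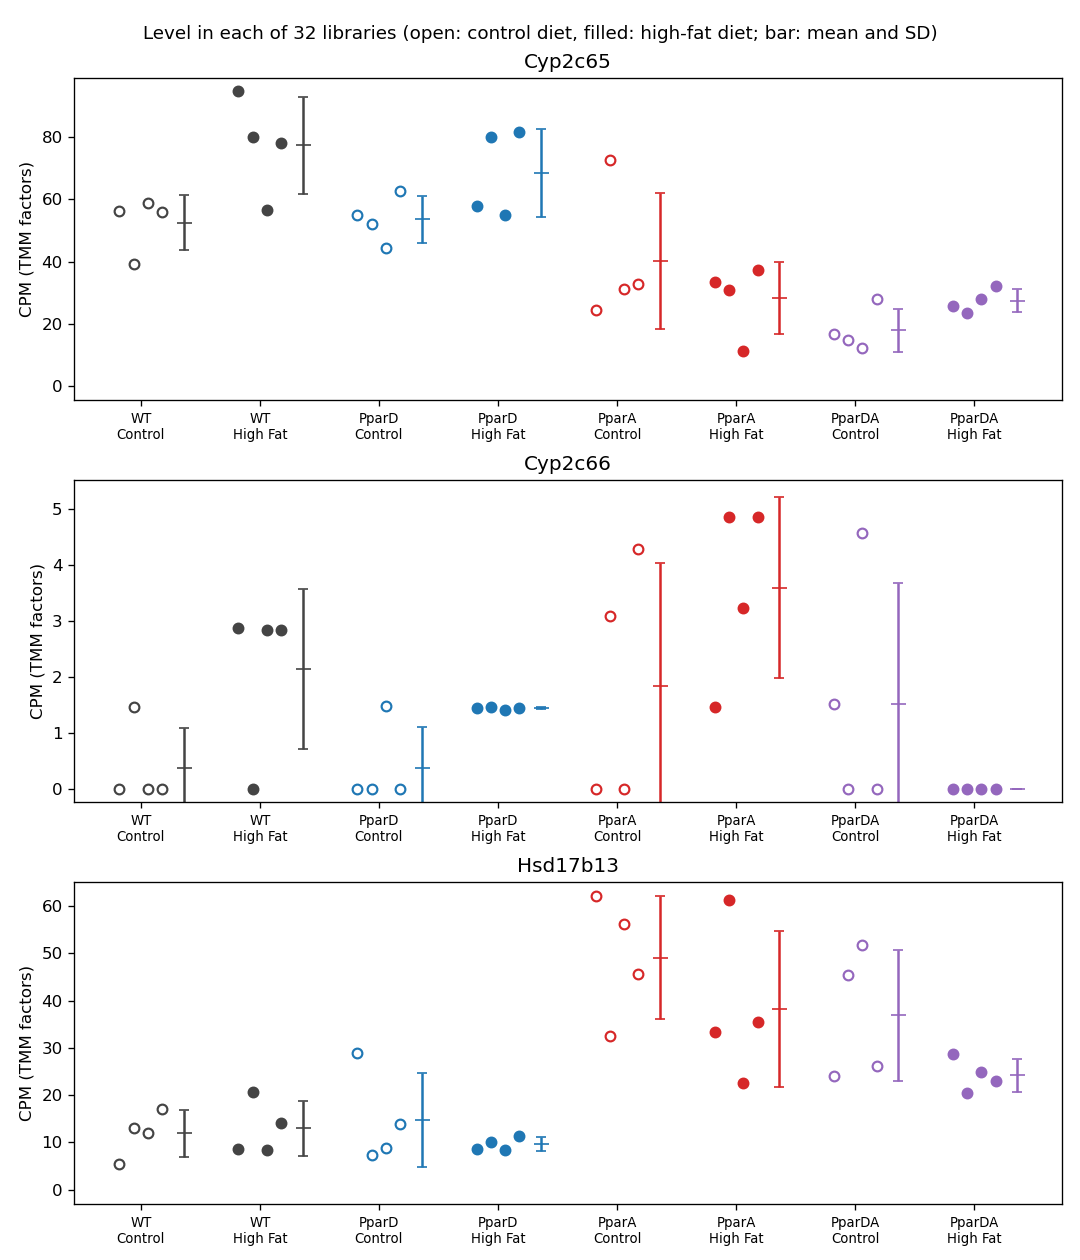
CPM (counts per 1e+06 with TMM factors, y axis) of each gene in 32 libraries by genotype and diet (x axis); open points are the Control diet, filled points High Fat, and bars the mean and SD of 4 libraries, cut where they would pass below the axis. Cyp2c65 is lower and Hsd17b13 higher in the 4 Ppara-null groups at the right, with 1 PparA Control library at 72.6 CPM of Cyp2c65, and Cyp2c66 stays at or below 4.85 CPM.

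Cyp2c65 was read in every library, with 7 to 66 counts. In WT on the Control diet it was at 56.2, 39.3, 58.9 and 55.8 CPM. In WT on High Fat it was at 94.8, 80.0, 56.7 and 78.1 CPM. The WT groups overlapped, with 1 High Fat library among the Control values. In PparD it was at 55.1, 52.2, 44.3 and 62.7 CPM on Control. On High Fat PparD had 57.8, 80.1, 55.1 and 81.7 CPM. Here too the diets overlapped, and PparD lay within the range of WT. In PparA Control libraries it was at 24.2, 72.6, 31.3 and 32.8 CPM. PparA on High Fat had 33.4, 30.7, 11.3 and 37.2 CPM. The value of 72.6 CPM, in library 13, stood apart: the other 3 of its group were below every WT library. In PparDA it was at 16.6, 14.7, 12.2 and 27.9 CPM on Control. PparDA on High Fat had 25.6, 23.5, 27.96 and 32.2 CPM. All 8 PparDA libraries (32.2 CPM or less) were below all 16 libraries that carry Ppara (39.3 CPM or more). The gene was chosen by this difference, and how many of all genes separate in this way was not counted.

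From high to low, the group means of Cyp2c65 were WT High Fat (77.4 ± 15.7 CPM, SD, n = 4), PparD High Fat (68.7 ± 14.2), PparD Control (53.6 ± 7.58), WT Control (52.6 ± 8.95), PparA Control (40.2 ± 21.9), PparA High Fat (28.1 ± 11.6), PparDA High Fat (27.3 ± 3.71) and PparDA Control (17.8 ± 6.95). Neighbours in this order overlapped in range at every step. The step exceeded the larger SD of its pair at 2 places, both between the diets of one genotype: PparD High Fat above PparD Control by 15.1 CPM, and PparDA High Fat above PparDA Control by 9.47 CPM. Without library 13, no Ppara-null library was within the range of the others, again in the contrast by which the gene was chosen.

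Fitted as log2 fold changes with edgeR, and given as a description, Cyp2c65 in PparA against WT was -0.39 ± 0.28 (SE) on Control and -1.45 ± 0.28 on High Fat. PparDA against PparD gave -1.59 ± 0.31 on Control and -1.32 ± 0.29 on High Fat. The mean of these 4 differences, called the Ppara-null average below, was -1.19 ± 0.14, or 2.27-fold lower. Over all genes 0.562 and 0.749% were called in PparA against WT (Control, High Fat) and 1.19 and 1.58% in PparDA against PparD, from which nothing is read for the members. In PparA against WT on Control, the size depended on which libraries were used. The value was -0.83 without library 13, -1.05 in runs 1 and 3, and 0.14 in runs 2 and 4. Library 13 is in run 2, and each run holds only 1 library per group. The part of library 13 and that of the runs cannot be told apart. Over both diets the runs gave lower Cyp2c65 each time, at 22.8 CPM in Ppara-null and 59.9 CPM in other libraries of runs 1 and 3, and 33.9 and 66.2 CPM in runs 2 and 4.

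Hsd17b13 was lower in counts, with 4 to 41 per library, and it passed the filter on low counts through the Ppara-null groups, where it was high. In WT on Control it was at 5.35, 13.1, 12.1 and 17.2 CPM. In WT on High Fat it was at 8.62, 20.7, 8.50 and 14.2 CPM. Both diets spanned much the same range in WT. In PparD on Control it was at 29.0, 7.25, 8.87 and 13.9 CPM. PparD on High Fat had 8.66, 10.2, 8.48 and 11.5 CPM. The 29.0 CPM of library 3 was the highest of all libraries that carry Ppara. In PparA on Control it was at 62.1, 32.4, 56.3 and 45.6 CPM. PparA on High Fat had 33.4, 61.4, 22.5 and 35.6 CPM. Every PparA library was above every WT library, in a contrast by which the gene was chosen. The margin was narrow, with the lowest PparA library at 22.5 CPM and the highest WT library at 20.7 CPM, 14 counts each. How many of all genes separate in this way was not counted. In PparDA on Control it was at 24.1, 45.5, 51.7 and 26.3 CPM. PparDA on High Fat had 28.7, 20.4, 24.8 and 22.97 CPM. Of the libraries that carry Ppara, 2 reached into the range of the Ppara-null ones, library 3 (PparD Control) and library 10 (WT High Fat). Of the 16 Ppara-null libraries, 7 lay inside the range of the others: libraries 7, 8, 16, 22, 24, 31 and 32, all below library 3.

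The order of the group means of Hsd17b13 was PparA Control (49.1 ± 13.05 CPM, SD, n = 4), PparA High Fat (38.2 ± 16.4), PparDA Control (36.9 ± 13.8), PparDA High Fat (24.2 ± 3.52), PparD Control (14.8 ± 9.92), WT High Fat (13.01 ± 5.80), WT Control (11.9 ± 4.91) and PparD High Fat (9.70 ± 1.405). No step between neighbours exceeded the larger SD of its pair, and all neighbours overlapped in range, PparDA High Fat and PparD Control through library 3. The 4 Ppara-null groups held the first 4 places, which is the pattern for which the gene was chosen. As a description, the log2 fold changes were 2.03 ± 0.36 (SE) and 1.55 ± 0.37 in PparA against WT (Control, High Fat) and 1.32 ± 0.36 and 1.31 ± 0.41 in PparDA against PparD. The Ppara-null average was 1.55 ± 0.19, or 2.93-fold higher. PparDA against PparD on Control was 1.87 without library 3. PparA against WT on Control was 2.76 in runs 1 and 3 and 1.37 in runs 2 and 4.

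Cyp2c66 had 0 to 3 counts per library and was at 0 in 15 of 32 libraries. It did not pass the filter on low counts and was not tested. Its counts per group were 1 in WT Control, 6 in WT High Fat, 1 in PparD Control, 4 in PparD High Fat, 5 in PparA Control, 9 in PparA High Fat, 4 in PparDA Control and 0 in PparDA High Fat. The 18 counts in Ppara-null libraries have an exact Poisson 95% interval of 10.7 to 28.4, and the 12 in other libraries one of 6.201 to 20.96, which cover counting error only. These intervals overlap, and at this depth no lower level of Cyp2c66 in Ppara-null cells was detectable. With so few counts, it cannot be told whether Cyp2c66 shares the pattern of Cyp2c65, its neighbour on chromosome 19. The difference between them was not tested.

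Cyp2c65 and Hsd17b13 are set against each other in the plot of both genes by library.

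**Figure D2:**
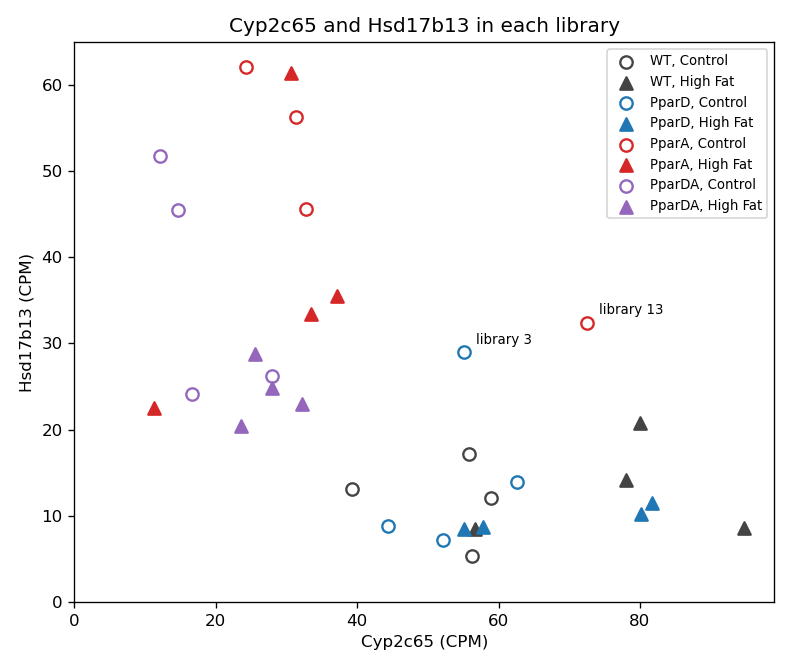
Cyp2c65 (x axis, CPM) against Hsd17b13 (y axis, CPM) in 32 libraries; colours give the genotype, open circles the Control diet and filled triangles High Fat. Ppara-null libraries lie at the upper left and the others at the lower right, with library 13 (72.6 and 32.4 CPM) and library 3 (55.1 and 29.0 CPM) between them.

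Neither tested gene was called for diet at an adjusted p under 0.05. Cyp2c65 was higher on High Fat by 0.55 ± 0.26 (log2, SE) in WT, 0.35 ± 0.26 in PparD and 0.62 ± 0.34 in PparDA, and lower by 0.50 in PparA (-0.50 ± 0.30). Its adjusted p by edgeR's quasi-likelihood test was 0.64, 1.0, 0.62 and 0.91 in that order of naming, and the unadjusted p in WT was 0.043. Averaged over genotypes the difference was 0.25 ± 0.15 (95% interval -0.044 to 0.55, adjusted p = 0.64 by edgeR). Hsd17b13 gave 0.13 ± 0.43 in WT, -0.60 ± 0.44 in PparD, -0.36 ± 0.31 in PparA and -0.61 ± 0.34 in PparDA. Its average over genotypes was -0.36 ± 0.19 (95% interval -0.76 to 0.033, adjusted p = 0.62 by edgeR). Of all 5872 genes tested, 0.102% were called for diet in WT, 0.0851% in PparD, 0.136% in PparA, 0.0341% in PparDA and 0.324% in the average, so calls were rare for any gene.

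Ppard was compared next, on both backgrounds. The difference of PparD from WT in Cyp2c65 was within its error on Control (0.03 ± 0.27, log2) and on High Fat (-0.17 ± 0.26), with 95% intervals of -0.52 to 0.58 and -0.69 to 0.35. Within the Ppara-null background Cyp2c65 was lower in PparDA than in PparA on Control by -1.17 ± 0.32 (95% interval -1.83 to -0.52), 2.25-fold, with an unadjusted p of 0.00097 and an adjusted p of 0.26 by edgeR, and it was not called. On High Fat the same comparison gave -0.05 ± 0.32. The Control value rested in part on library 13, without which it was -0.72 (adjusted p = 0.63 by edgeR). It was called in 1 alternative, with no filter on low counts (-1.18, adjusted p = 0.0028 by edgeR), and adjusted p ranged from 0.0028 to 0.88 over the alternatives. The average over the 4 comparisons of Ppard-fl/fl with the matching genotype was -0.34 ± 0.15 for Cyp2c65 (unadjusted p = 0.026, adjusted p = 0.31 by edgeR).

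Hsd17b13 differed between PparD and WT by 0.31 ± 0.42 on Control and -0.41 ± 0.45 on High Fat. Between PparDA and PparA it differed by -0.40 ± 0.31 on Control and -0.65 ± 0.34 on High Fat. The average was -0.29 ± 0.19 (adjusted p = 0.59 by edgeR), and the Control value of PparD against WT was -0.23 without library 3. Calls over all genes were 0.204 and 0.017% of genes in PparD against WT (Control, High Fat), 0.136 and 0.272% in PparDA against PparA, and 0.954% in the average.

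The interactions ask whether 1 factor changes the effect of another. For Cyp2c65 the effect of the Ppara-null genotype was more negative on High Fat by -0.40 ± 0.29 and more negative with Ppard-fl/fl by -0.54 ± 0.29, and the effect of Ppard-fl/fl was more positive on High Fat by 0.46 ± 0.29. Their adjusted p was 0.87, 0.87 and 0.95 by edgeR. For Hsd17b13 the 3 interactions were -0.25 ± 0.39, -0.48 ± 0.39 and -0.49 ± 0.38, in the same order. Over all genes 0.0511, 0.0851 and 0.102% were called. In all, 26 tests were made on these genes over 13 comparisons. edgeR called 0 of them, with 3 at an unadjusted p under 0.05, and DESeq2 called 0, with 3 at an unadjusted p under 0.05 and an adjusted p in 19 of the 26.

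The plot of fitted differences sets the contrasts that chose the genes above those that were tested.

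**Figure D3:**
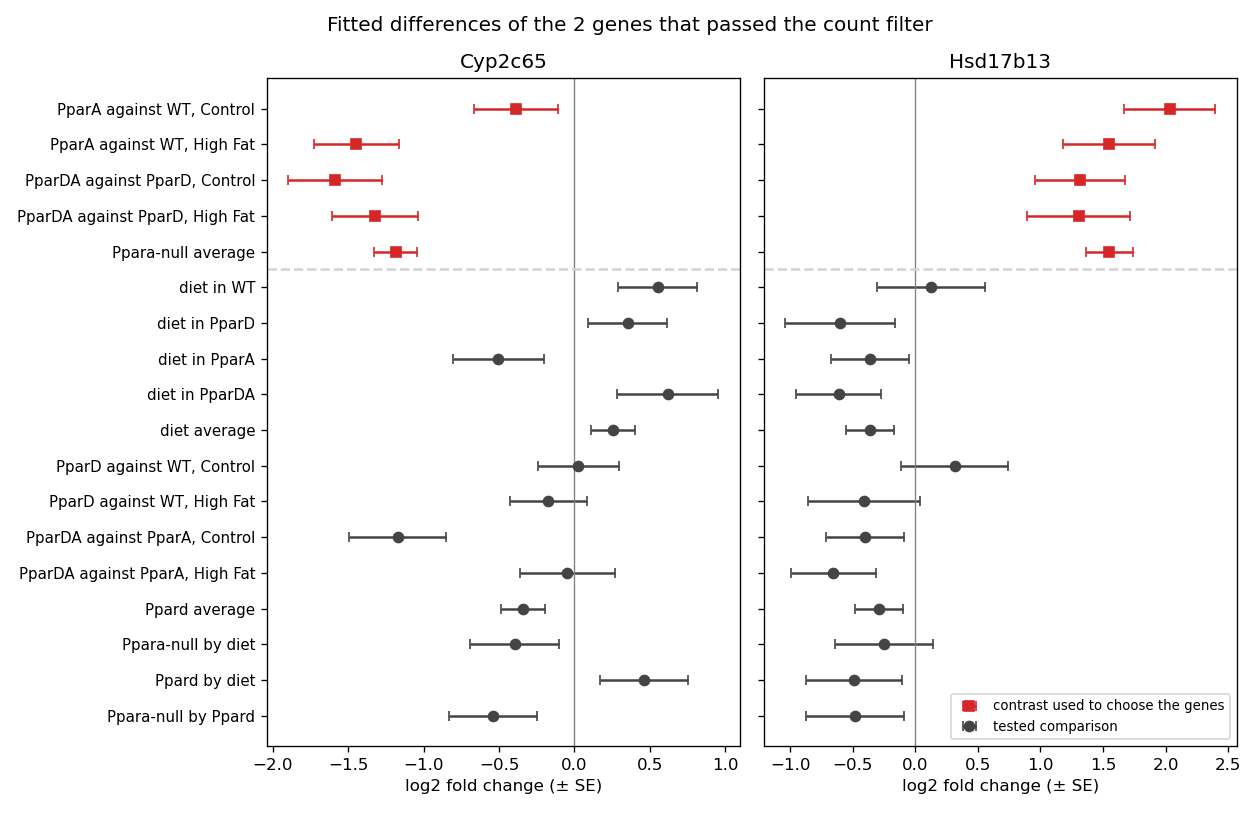
log2 fold change ± SE (x axis) of Cyp2c65 and Hsd17b13 in 18 comparisons (y axis); red squares are the 5 Ppara contrasts that chose the genes and grey circles the 13 tested comparisons. All red squares lie to the left for Cyp2c65 and to the right for Hsd17b13, while the grey circles lie on both sides of 0.

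The wider Cyp2c family was read thinly. The table holds 13 other members, of which 8 had any count and 1, Cyp2c68, passed the filter: it had 242 counts and a Ppara-null average of 0.59 ± 0.33 (adjusted p = 0.34 by edgeR). Cyp2c55, which oxidises arachidonic acid to hydroxylated products in the gut, lies before Cyp2c65 on chromosome 19 (39007019 to 39042693). It had 123 counts, 40 in Ppara-null and 83 in other libraries, and was not tested. Its group means ran from 0.777 ± 0.900 CPM (SD, n = 4) in PparDA Control to 8.26 ± 4.11 CPM in PparD High Fat, and PparDA was lowest on both diets. Of Cyp2c29, 2 counts were read.

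Of 38 other genes of arachidonic acid release and oxidation, 10 were tested, and in the Ppara-null average 2 were called higher and 1 lower, with a median of 0.04 against -0.0015 for all genes. Over all genes 7.58% were called in this contrast, and because it chose Cyp2c65 and Hsd17b13 nothing is read from that share for them. Lta4h, which makes leukotriene B4 and, like Cyp2c65, was lower, had -0.32 ± 0.05 (adjusted p = 3.9e-05 by edgeR). Its call was lost in runs 1 and 3 (adjusted p = 0.061 by edgeR). Cyp2j6, an epoxygenase of another family, was higher by 0.38 ± 0.11 (adjusted p = 0.024 by edgeR), a call lost without library 14 and in runs 1 and 3 (0.17, adjusted p = 0.76). Cyp4v3, a fatty acid omega-hydroxylase, was higher by 0.45 ± 0.13 (adjusted p = 0.030), a call lost without library 13, 14 or 28 and in runs 1 and 3 (0.088, adjusted p = 0.91). Downstream, Ephx2 was at 0.76 ± 0.26 (adjusted p = 0.074) and Ephx1, the microsomal epoxide hydrolase, at -0.05 ± 0.15, and 0 of 2 tested hydrolases were called by edgeR, with 1 at an unadjusted p under 0.05.

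Among the P450 electron donors, 1 of 4 tested was called. Cyb5r3, which passes electrons from NADH to cytochrome b5, rose by 1.89 ± 0.07 in the Ppara-null average (adjusted p = 2.2e-18 by edgeR), from 78.5 ± 10.9 CPM in other libraries to 291 ± 32.8 CPM in Ppara-null ones. Its call held in each of 40 alternatives. Cyb5r3 lies on the chromosome of Ppara (chromosome 15), at 83153494 to 83172592, with Ppara at 85734983 to 85802819. The part of that position in its level was not tested. Cyb5a (0.08 ± 0.04) and Cyb5b (0.12 ± 0.14) did not pass, and Por, with 177 counts, was not tested.

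Around Hsd17b13, 5 of 10 other Hsd17b genes were tested, with 0 called higher and 1 lower and a median of -0.01. The one called was Hsd17b4, the bifunctional enzyme of peroxisomal fatty acid oxidation (-0.35 ± 0.08, adjusted p = 0.0075 by edgeR), which was not called within either pair of runs (-0.46 in runs 1 and 3, -0.23 in runs 2 and 4). Hsd17b11, the neighbouring lipid droplet dehydrogenase, was at -0.40 ± 0.15 (adjusted p = 0.11 by edgeR). Hsd17b7, of cholesterol synthesis, was at 0.61 ± 0.23 (adjusted p = 0.11). By group, Hsd17b11 ran from 210 ± 71.6 CPM (SD, n = 4) in WT Control to 636 ± 200 CPM in PparD High Fat. In the Ppard average it was higher by 0.62 ± 0.15 (adjusted p = 0.029 by edgeR), whereas Hsd17b13 there was at -0.29 ± 0.19. That call of Hsd17b11 was lost on leaving out any 1 of libraries 1, 4, 8, 9, 11, 12, 15, 16, 17, 18 and 21, and in runs 2 and 4 (adjusted p up to 0.55).

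Of 23 other lipid droplet genes 10 were tested, and 1 was higher and 1 lower in the Ppara-null average, with a median of -0.06. Dgat1, which makes triglyceride, was higher by 0.87 ± 0.22 (adjusted p = 0.0094 by edgeR), but by 0.23 in runs 1 and 3 (adjusted p = 0.79). Plin2, the droplet coat protein and a PPAR target, was lower (-0.27 ± 0.08, adjusted p = 0.046), a call lost on leaving out most single libraries (adjusted p over alternatives 0.0062 to 0.74). Of 21 genes of retinol metabolism, the pathway in which Hsd17b13 has been placed, 9 were tested, with a median of 0.24: Aldh1a3, a retinal dehydrogenase (2.63 ± 0.30, adjusted p = 3.9e-07), and Rbp2, the retinol-binding protein of absorptive cells (2.44 ± 0.39, adjusted p = 7.2e-05), rose, and Dhrs4, a retinal reductase, fell (-0.38 ± 0.09, adjusted p = 0.0078 by edgeR). In runs 1 and 3 Aldh1a3 was at 1.62 (adjusted p = 0.0020) and Rbp2 at 1.35 (adjusted p = 0.18 by edgeR), and Dhrs4 was called in neither pair of runs.

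Of 34 canonical PPAR targets, 24 were tested. In the Ppara-null average 0 rose and 4 fell by edgeR: Acadvl (-0.63 ± 0.09, adjusted p = 2.5e-05), Slc25a20 (-0.54 ± 0.14, adjusted p = 0.017), Eci2 (-0.46 ± 0.11, adjusted p = 0.0087) and Plin2. All belong to fatty acid oxidation or storage. In runs 1 and 3 Eci2 was at -0.28 (adjusted p = 0.68) and Slc25a20 at -0.38 (adjusted p = 0.57 by edgeR), while Acadvl was called in both pairs of runs. On High Fat, averaged over genotypes, 8 of the 24 rose and 0 fell, among them Fabp1 (1.72 ± 0.30, adjusted p = 0.0031 by edgeR) and Acaa2 (0.48 ± 0.08, adjusted p = 0.0016). The same contrast left Cyp2c65 and Hsd17b13 uncalled. Targets of the drug-sensing receptors CAR and PXR, which control many P450 genes, had 5 of 10 tested genes higher and 0 lower in the Ppara-null average, with a median of 0.73. They were Gsta1 (2.77 ± 0.58, adjusted p = 0.0019), Cyp3a13 (1.89 ± 0.41, adjusted p = 0.0025), Cyp3a25 (1.76 ± 0.47, adjusted p = 0.017, lost without library 13), Sult1d1 (0.98 ± 0.15, adjusted p = 3.2e-05) and Ces2c (0.70 ± 0.22, adjusted p = 0.042 by edgeR, lost on leaving out any of 18 single libraries). In runs 1 and 3 Gsta1 was at 0.43 (adjusted p = 0.93), Cyp3a13 at 1.33 (adjusted p = 0.085) and Ces2c at 0.28 (adjusted p = 0.76 by edgeR), all uncalled, while Sult1d1 was called in both pairs of runs.

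The plot of lists shows where these genes lie.

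**Figure D4:**
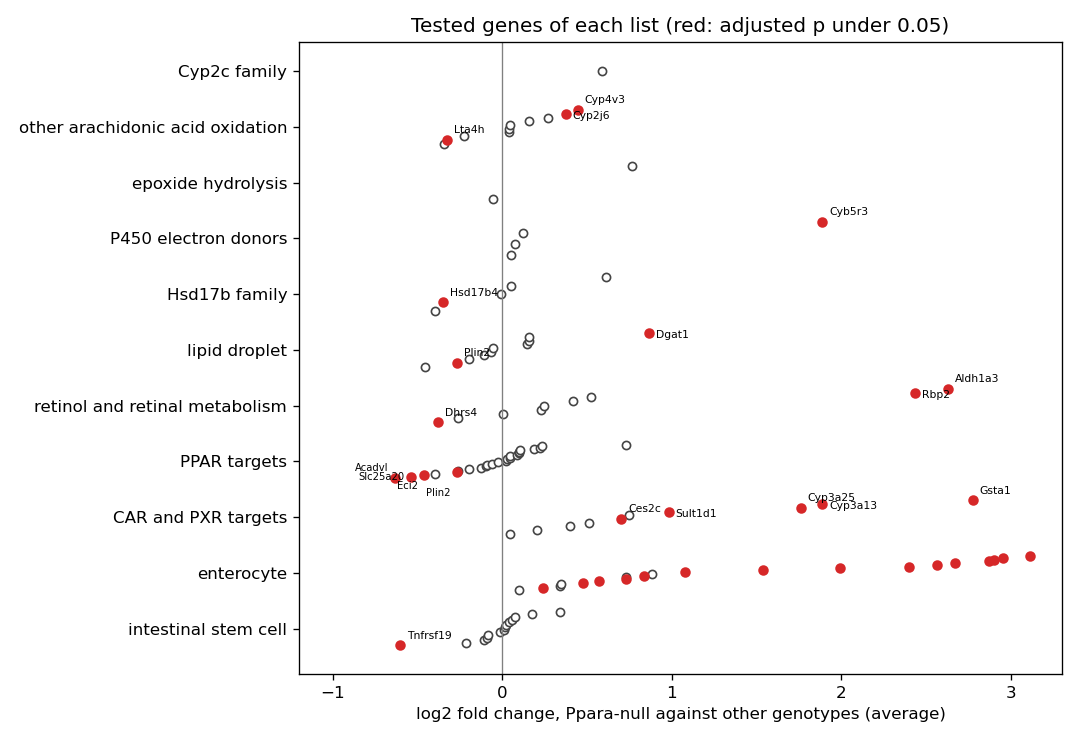
log2 fold change in the Ppara-null average (x axis) of each tested gene of 11 lists (y axis); red points have an adjusted p under 0.05. Enterocyte markers and CAR and PXR targets lie to the right of 0, the called PPAR targets to the left, and stem cell markers around 0.

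Markers of absorptive enterocytes differed with the same genotypes as the members. In the Ppara-null average 15 of 20 tested enterocyte markers rose and 0 fell, with a median of 0.98, among them Apoa1 (2.57 ± 0.40, adjusted p = 5.0e-05 by edgeR) and Sis (2.67 ± 0.45, adjusted p = 0.00014). The summed level of all 24 was 1637 to 8000 CPM in Ppara-null and 1646 to 4410 CPM in other libraries. Without Fabp1, a PPAR target, the sum was 1494 to 5938 CPM in Ppara-null and 1502 to 2246 CPM in other libraries. The rise was not even over the runs: of the 15 markers 0 were called in runs 1 and 3, with a median of 0.51, and 15 in runs 2 and 4, with a median of 2.09. By Xist and Ddx3y, runs 1 and 3 were female and runs 2 and 4 male, so run and sex cannot be told apart here. In bulk samples, more or fewer cells of a type and more or less RNA per cell cannot be told apart. In the PparA libraries of runs 1 and 3 the enterocyte sum was 1637 to 2080 CPM, against 1845 to 3372 CPM in WT of the same runs. Without Fabp1 it was 1494 to 1781 CPM in PparA and 1683 to 2143 CPM in WT. There Cyp2c65 was at 11.3 to 33.4 CPM in PparA and 56.2 to 94.8 CPM in WT, and Hsd17b13 at 22.5 to 62.1 and 5.35 to 12.1 CPM. In the same runs the enterocyte sum was higher in PparDA, at 2859 to 4952 CPM, than in PparD, at 1988 to 2704 CPM. Without Fabp1 it was 2540 to 3862 CPM in PparDA and 1837 to 2088 CPM in PparD. There Cyp2c65 was at 12.2 to 27.96 CPM in PparDA and 44.3 to 57.8 CPM in PparD, and Hsd17b13 at 24.1 to 51.7 and 8.48 to 29.0 CPM. Library 13, with the highest Cyp2c65 of the Ppara-null libraries, had an enterocyte sum of 6835 CPM, second to library 14 (8000 CPM), in which Cyp2c65 was at 30.7 CPM.

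Of 14 tested stem cell markers 0 rose and 1, Tnfrsf19, fell (-0.60 ± 0.18, adjusted p = 0.029 by edgeR). That call was lost in 9 of 40 alternatives: without library 4, 8, 13, 14, 23 or 31, with DESeq2, and within either pair of runs. Of other cell types in the Ppara-null average, 4 of 10 tested goblet markers rose and 0 fell, 1 of 14 Paneth markers rose (Defa17) and 1 fell (Mptx2), 1 of 5 enteroendocrine markers rose (Gip), and 0 of 4 tuft markers were called by edgeR, with 0 at an unadjusted p under 0.05. The calls of Defa17 and Gip were lost in 21 and 18 of 40 alternatives, most of them single libraries left out, and the goblet calls and that of Mptx2 were lost in runs 1 and 3. The summed levels of these cell types overlapped between Ppara-null and other libraries. Leukocyte markers summed to no more than 30.9 CPM and none was tested. Of stromal and endothelial markers 1 was tested and not called, and the markers Col3a1, Dcn, Des, Cdh5 and Kdr were at 0 in all libraries. Of 9 markers of the proximal small intestine 6 were tested and 3 rose, with a median of 1.28. The distal list had 2 higher of 5 tested. The part of any of these in the levels of Cyp2c65 and Hsd17b13 was not tested.

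The neighbour of Hsd17b13 and the enterocyte sum can be compared in the plot of both by library.

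**Figure D5:**
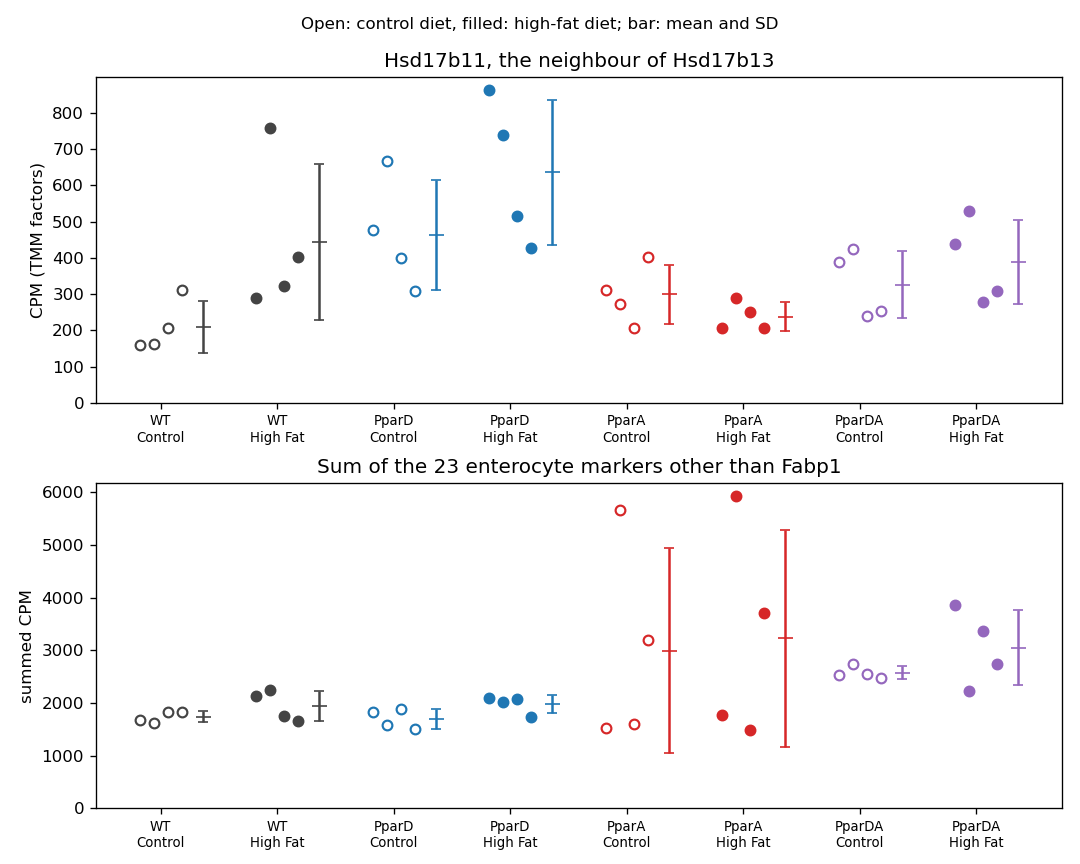
CPM of Hsd17b11 (upper panel, y axis) and the summed CPM of 23 enterocyte markers without Fabp1 (lower panel, y axis) in 32 libraries by group (x axis); open points are Control, filled points High Fat, bars the mean and SD of 4 libraries. Hsd17b11 is highest in PparD High Fat (636 ± 200 CPM), and the enterocyte sum is widest in the PparA groups.

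Among the genes whose log2 CPM followed Cyp2c65 most closely over the 32 libraries were Serhl (Pearson r = 0.76), Apobec3 (0.70), Lta4h (0.70) and Cope (0.67). Those nearest to Hsd17b13 were Cyb5r3 (0.82), Ywhaz (0.76), Tmem116 (0.75) and the pseudogenes Rpl3-ps1 (0.75) and Rpl30-ps9 (0.74). These correlations describe a pattern over libraries that share the genotype groups. Within the 16 Ppara-null libraries r was 0.45 for Serhl and -0.20 for Apobec3 with Cyp2c65, and -0.034 for Cyb5r3 with Hsd17b13. Within the 16 others it was 0.054, -0.0025 and 0.27, so most of the likeness lay between genotypes. Several of these genes lie on the chromosome of Ppara (chromosome 15, 85734983 to 85802819): Serhl at 83089506 to 83116674, Apobec3 at 79891659 to 79915906, Cyb5r3 at 83153494 to 83172592 and Ywhaz at 36770770 to 36796929. Cyp2c65 and Hsd17b13 themselves lie on chromosomes 19 and 5.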

How the data were processed

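RNA of 32 libraries was measured in 8 groups of 4. The authors deposited expected counts per gene, which they had rounded to whole numbers, and a log2 table of CPM, which was used only to check levels. Tools listed in the submitters' processing notes are R 4.0.2, Salmon 1.1.0 and edgeR 3.30.2, beside the build mm10, with no roles. The sources used here do not state the annotation release or whether molecular identifiers were used. Columns name a group and a library number, with no replicate number.

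Of 54418 identifiers 54166 were matched to GENCODE M21 symbols. With edgeR 4.0.16 in R 4.3.3, genes were kept by filterByExpr over the 8 groups (minimum count 10, minimum total 15), leaving 5872 with 97.1 to 97.7% of the counts, and TMM factors (0.938 to 1.07) were computed. One quasi-likelihood model (glmQLFit, glmQLFTest) held all libraries with a coefficient per group. Tests were two-sided, adjusted by Benjamini-Hochberg within each comparison and called at an adjusted p under 0.05. CPM are counts per 1e+06 of the library total times its TMM factor. The SE is the size of the log2 fold change over the square root of F. The method was tested on simulated data. DESeq2 1.42.0 was an alternative, beside other size factors, no filter, a robust prior, fewer groups in the fit, runs taken in pairs, a run term and single libraries left out.

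The 3 genes and all lists were chosen with earlier results of these data known. The named genes were fixed ones (such as Hsd17b11, Cyp2c55, Ephx1, Ephx2, Por, Plin2, Fabp1 and Acaa2), up to 4 per list by p in the Ppara-null average and up to 2 in the diet average, other Cyp2c or Hsd17b genes with a call, and the 5 named genes most correlated with each member. Others, such as Hsd17b7, Ces2c and the enterocyte examples, were picked after their values were seen, and some genes that the rule gave are left out here. Promoters are from RefSeq (GRCm38.p6), in which all 3 symbols matched.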

Additional observations from a re-analysis of the deposited data

Results flagged for a closer look

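In 23 groups of 4 libraries (those of the 3 genes with any spread), 4 had a library whose gap to the nearest other, as a share of the group's range, exceeded Dixon's 95% critical value for 4 values, which chance alone gives in about 1 in 20 groups. Cyp2c65 in WT Control library 9 was at 39.3 CPM with the others at 55.8 to 58.9 CPM (ratio 0.844). The other 3 concern Cyp2c66, in which they come from single counts. WT Control library 9 and PparD Control library 19 each had 1 count with the others of the group at 0 (ratio 1 in both). WT High Fat library 10 was at 0 with the others at 2.83 to 2.87 CPM (ratio 0.986).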

How the results depend on the processing

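Of 648 alternative fits of the 26 tests, 1 was called: Cyp2c65 in PparDA against PparA on Control with no filter on low counts (-1.18). The cause was not tested. Runs 1 and 3 turned Cyp2c65 in PparD against WT on Control (-0.22), in PparDA against PparA on High Fat (0.24) and in the Ppara-null by diet interaction (0.0024), and Hsd17b13 in the Ppard average (0.10). They moved PparA against WT on Control to -1.05 for Cyp2c65 and 2.76 for Hsd17b13. Runs 2 and 4 turned Cyp2c65 in PparD against WT on High Fat (0.033) and in PparA against WT on Control (0.14), and Hsd17b13 under diet in PparD (0.020), diet in PparA (0.30) and PparD against WT on Control (-0.49), and moved PparA against WT on Control to 1.37 for Hsd17b13. No turned value was called before or after.

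Leaving out 1 library gave ranges that cross 0 for Hsd17b13 under diet in WT (-0.18 to 0.36) and in PparD against WT on Control (-0.23 to 0.54), and for Cyp2c65 in PparDA against PparA on High Fat (-0.31 to 0.11) and PparD against WT on Control (-0.091 to 0.11). Cyp2c65 in PparA against WT on Control ranged from -0.83 to -0.21, and Hsd17b13 in PparDA against PparD on Control from 1.098 to 1.87. The Ppara-null average kept its sign in every alternative that gave a value, from -1.40 to -1.01 for Cyp2c65 and from 1.39 to 1.77 for Hsd17b13. Genes called over the alternatives numbered 71 to 712 in that average, 3 to 148 in the diet average and 5 to 206 in the Ppard average, against 445, 19 and 56. Most list genes called in the Ppara-null average, the enterocyte markers included, were not called in runs 1 and 3 alone, while 15 of 15 enterocyte markers were called in runs 2 and 4, which hold as many libraries. Cyb5r3, Aldh1a3, Acadvl and Sult1d1 were called in both pairs of runs.

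The labels number replicates but the columns do not, so runs stood in for them. With group means removed, 31 of 32 libraries correlated best with one of their own run, and pairs within a run had a median correlation of 0.15 (lowest -0.035), against -0.060 for pairs of different runs and groups. By Xist and Ddx3y the libraries of a run also had the same sex, but the labels do not tie a run to a litter or day, and not every pair within a run deviated together. With the run as a replicate block, 526 genes were called in the Ppara-null, 44 in the diet and 144 in the Ppard average, 0 of the 26 tests were called, and PparDA against PparA on Control for Cyp2c65 was -1.17 (adjusted p = 0.17). The counts of Cyp2c65 and Cyp2c66 summed as 1 gene, an alternative chosen after seeing the data, turned and moved no value. A fit of only the compared groups cannot be made for averages and interactions, and gave no value for Hsd17b13 where it then failed the filter, and fits in which DESeq2 set the adjusted p to missing were left out. Depth limits Cyp2c66 to single counts and Hsd17b13 to as few as 4 per library.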
